A study of Mus musculus with 43 samples.

Results

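The arcuate nucleus (ARC) was represented by 9 of the 41 hypothalamic libraries analysed here. They were the ARC libraries whose nucleus, nutritional state and mouse number in the expression table matched a sample label. They were compared with 32 libraries of the other nuclei sampled, 11 from the dorsomedial hypothalamus (DMH), 10 from the paraventricular nucleus (PVN) and 11 from the ventromedial hypothalamus (VMH). All came from 12 male mice, labelled C57/BL6, with the Snord116 small nucleolar RNA cluster deleted on the paternal allele (B6(Cg)-Snord116tm1.1Uta/J). They were 17 to 19 weeks old per the methods. Before brain dissection the mice either had food ad libitum or underwent a fast of 24 hours, and 4 ARC libraries were from fasted and 5 from fed mice. The deletion was constitutive and was shared by every library, ARC and other nuclei alike. No wild-type library entered any comparison, so the values describe nuclei of deletion mice. Each library held the RNA of a region cut by laser from stained sections, with neurons, glia and vessels together. In such tissue, fewer cells of a type and less RNA per cell cannot be told apart.

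The ARC lies at the base of the hypothalamus beside the third ventricle and above the median eminence. Its neurons read circulating leptin, ghrelin, growth hormone and insulin. They include neurons that release neuropeptide Y (Npy) and stimulate feeding, neurons that release melanocortins and inhibit it, and dopamine and growth hormone-releasing hormone neurons that act on the pituitary. Tanycytes, elongated glia of the ventricle floor, border the nucleus. Among 18 peptide, hormone and marker genes listed for the ARC, 5 were in the table (Npy, Th, Pnoc, Crabp1 and Rxfp1). Agrp, Pomc and Ghrh were among the genes not analysed here. Crabp1 and Rxfp1 had entered that list because they were high in these same libraries.

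Expression was given as CPM, the reads of a gene scaled to a common library total. Depth read from the step between low values was 2.37e+06 to 6.29e+06 reads in ARC (median 4.38e+06) and 1.94e+06 to 8.23e+06 in the other nuclei. At the median ARC depth, 1 CPM rests on about 4.38 reads. The correlation of log2 values was 0.859 to 0.946 between ARC libraries and 0.823 to 0.933 between an ARC library and another nucleus. The labelled region was checked against markers of its neighbours. The summed CPM of 14 VMH genes was 408 to 652 in ARC and 2429 to 3282 in VMH. That of 8 genes of the DMH and lateral hypothalamus was 34.9 to 138 in ARC and 343 to 981 in DMH. The 7 genes listed for PVN did not separate the regions. Their sum was 1256 to 1815 in ARC (median 1440), which overlapped with PVN (1444 to 2681, median 1719) and DMH (1173 to 1597) and was above VMH (455 to 677). The DMH library of fed mouse 92 stood apart with 527 CPM summed over 7 genes of fibroblasts and meninges, where the 9 ARC libraries had 21.3 to 84.2. That library was also the highest of DMH for tanycyte, astrocyte, oligodendrocyte, oligodendrocyte precursor, microglial and endothelial genes. The upper ends of the DMH sums given below for these cell types are therefore its values.

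The main question was which genes set ARC apart from the mean of the other nuclei, each given equal weight. Differences are log2 differences of CPM + 0.5, which understate the change of genes with low values. A gene was called at an adjusted p under 0.1 (limma, Benjamini-Hochberg) and a log2 difference of at least 1. Of 10077 genes tested, 261 were enriched in ARC (2.59%) and 326 were depleted (3.24%). With a pseudocount of 2 in place of 0.5 the counts were 145 and 174. Against each other nucleus in turn, 208 genes were above all of them (2.06%) and 330 were below all of them (3.27%), each with adjusted p under 0.1 and with no minimum size. Of the 261 enriched genes, 105 passed against every other nucleus (40.2%), as did 134 of the 326 depleted genes (41.1%). The lowest ARC library exceeded every library of the other nuclei for 23 genes (0.228% of those tested), and the highest ARC library was under every other library for 11 genes (0.109%). The enriched genes kept a positive difference within all of the 3 batches for 255 of 261 genes, and the depleted genes a negative one for 314 of 326. They had been called on all batches together, which favours the same sign.

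**Figure D1:**
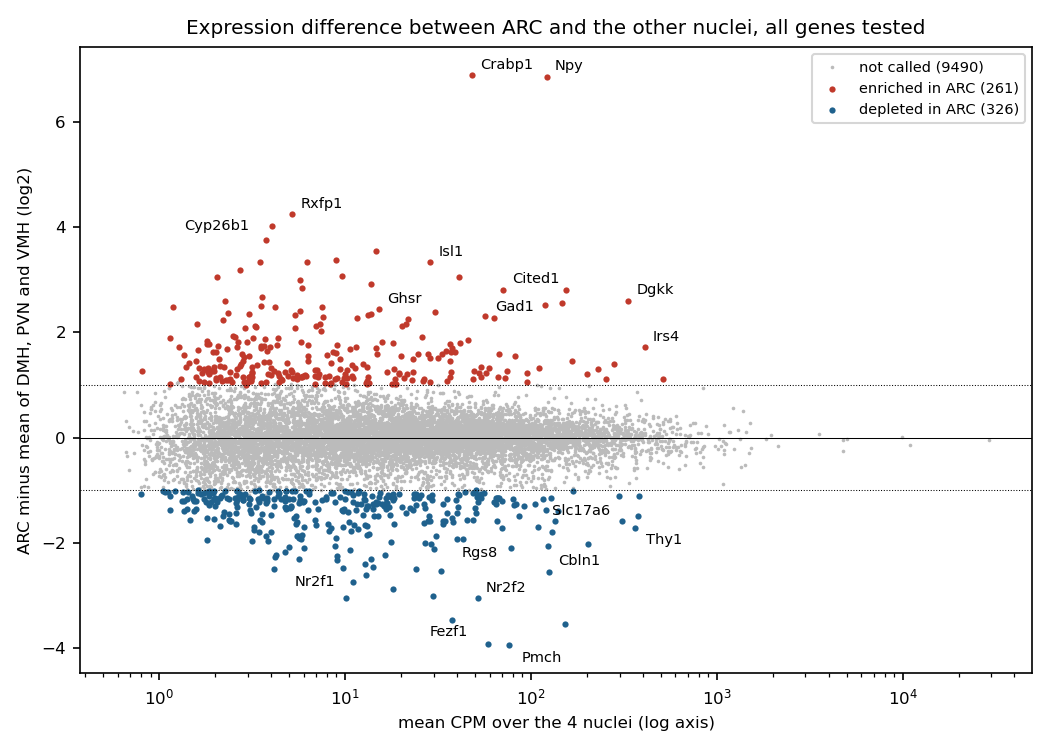
Each point is a gene. The horizontal axis is the mean CPM over the 4 nuclei on a log axis, and the vertical axis is the log2 difference between ARC and the mean of DMH, PVN and VMH, with dotted lines at 1 and -1. The 261 enriched genes are red and the 326 depleted genes blue, and Crabp1 and Npy stand alone near 7.

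Npy and Crabp1 showed the largest enrichment. Npy, the peptide of the feeding neurons of the ARC, is encoded on chromosome 6 (GRCm38, 49822710 to 49829507, plus strand). Its lowest ARC library had 195 CPM, the median 326 and the highest 1226, against 0.831 to 33.4 CPM in the 32 other libraries. The ARC mean was 101.3 times the mean of the other nuclei, and the log2 difference was 6.86 ± 0.32 (SE; adjusted p = 1.21e-23, limma). No library of another nucleus reached the lowest ARC library. The 4 fasted ARC libraries had 636, 326, 732 and 1226 CPM, and the 5 fed ones had 370, 288, 269, 195 and 214. The difference from the other nuclei was 7.41 in fasted and 6.41 in fed mice, and the test of that change gave an adjusted p of 0.964. Within the batches the difference was 6.79, 6.85 and 6.90.

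Crabp1 encodes a cytoplasmic protein that binds retinoic acid, the hormone-like derivative of vitamin A. Its ARC libraries ranged from 129 to 268 CPM with a median of 170, and the other libraries from 0 to 10.1. The difference was 6.88 ± 0.34 (adjusted p = 6.59e-23, limma), and the groups did not overlap. Another gene of retinoic acid handling, Cyp26b1, which encodes a cytochrome P450 that degrades it, had 7.17 to 18.5 CPM in ARC (median 15.4) and 0 to 4.75 in the other libraries, a difference of 4.02 ± 0.31 (adjusted p = 5.23e-15). Again no library overlapped. Of 10 retinoid and thyroid hormone handling genes tested, 4 were enriched (40%) and 1 was depleted (10%), against 2.59% and 3.24% of all genes. Crabp1, counted among the 4, had been picked as a marker because it was high in these same libraries. Besides Crabp1 and Cyp26b1, the other 2 enriched genes were Ttr and Crym, which encode proteins that bind thyroid hormone. They were low in ARC (medians of 2.43 and 3.34 CPM). Ttr did not pass against DMH (0.65, adjusted p = 0.371, limma), nor Crym against VMH (0.06, adjusted p = 0.953, limma). Both lost their calls with a pseudocount of 2 (differences of 0.74 and 0.73), Ttr also with fasted libraries only (adjusted p = 0.282, limma) and Crym with fed or fasted libraries only (adjusted p = 0.153 and 0.178). Slco1c1, a thyroxine transporter, was the depleted gene, at -1.07 ± 0.20. It was highest in PVN, with a mean of 44.0 CPM against 12.3 CPM in ARC. Its difference stayed negative but no longer reached -1 without the library labelled ARC-D-Fast-311 (-0.998) or ARC-D-Fed-125 (-0.85).

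Rxfp1 encodes the relaxin receptor, which raises cyclic AMP in the cells that carry it. It had 11.4 to 30.8 CPM in ARC (median 16.8) and 0 to 4.80 CPM elsewhere, a difference of 4.25 ± 0.32 (adjusted p = 1.59e-15, limma) with no overlap. Rxfp2, a related receptor, was enriched at 1.69 ± 0.40, and with a pseudocount of 2 its difference was 0.98 and the call was lost. Against PVN, Rxfp2 did not pass (0.86, adjusted p = 0.293, limma). Rxfp3, the receptor of relaxin-3, was depleted at -2.61 ± 0.30 (adjusted p = 1.18e-09). Its ARC libraries had 0.304 to 4.22 CPM, and its mean was 33.4 CPM in PVN, 8.90 in DMH and 7.63 in VMH. The relaxin receptors differed in direction within ARC, Rxfp1 being above and Rxfp3 below each of the other nuclei.

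The promoters of Npy, Crabp1 and Cyp26b1 are shown because these genes were the most enriched with a RefSeq promoter among those without overlap, and that of Fezf1 because it was the most depleted gene that was below each other nucleus. Each was cut as 250 bases before and 50 after the start of transcription in the RefSeq table (GRCm38.p6). The bases are printed 5′ to 3′ on the strand of the gene. For Npy and Crabp1, both on the plus strand, that start was also the start of the annotated gene. For Cyp26b1 and Fezf1, both on the minus strand, it lay 98 bases from the start of the annotated gene. These minus-strand windows may be shifted, and the cause of the offset was not tested. Capitals mark the GC box, spelled GGGCGG, and the letters of the TATA box, spelled TATAAA, on either strand. The positions are chr6:49822460-49822759 (plus strand) for Npy, chr9:54764498-54764797 (plus) for Crabp1, chr6:84593761-84594060 (minus) for Cyp26b1 and chr6:23248215-23248514 (minus) for Fezf1.
Npy: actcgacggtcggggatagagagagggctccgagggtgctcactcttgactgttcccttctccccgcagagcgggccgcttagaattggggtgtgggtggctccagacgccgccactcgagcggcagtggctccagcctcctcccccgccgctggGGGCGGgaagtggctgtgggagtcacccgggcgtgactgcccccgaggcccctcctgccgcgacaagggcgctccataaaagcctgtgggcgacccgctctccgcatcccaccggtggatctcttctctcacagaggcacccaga
Crabp1: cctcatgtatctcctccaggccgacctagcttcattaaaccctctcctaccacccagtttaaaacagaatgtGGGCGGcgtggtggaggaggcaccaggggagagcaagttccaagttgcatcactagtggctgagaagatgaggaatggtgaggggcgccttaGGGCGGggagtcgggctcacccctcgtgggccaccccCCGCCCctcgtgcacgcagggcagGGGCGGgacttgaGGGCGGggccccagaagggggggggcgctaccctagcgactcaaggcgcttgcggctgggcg
Cyp26b1: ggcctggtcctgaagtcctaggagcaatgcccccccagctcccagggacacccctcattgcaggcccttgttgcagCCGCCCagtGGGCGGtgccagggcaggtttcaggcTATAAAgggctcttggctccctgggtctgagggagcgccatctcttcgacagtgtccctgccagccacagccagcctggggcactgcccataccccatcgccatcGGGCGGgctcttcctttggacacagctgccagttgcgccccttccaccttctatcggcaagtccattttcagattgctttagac
Fezf1: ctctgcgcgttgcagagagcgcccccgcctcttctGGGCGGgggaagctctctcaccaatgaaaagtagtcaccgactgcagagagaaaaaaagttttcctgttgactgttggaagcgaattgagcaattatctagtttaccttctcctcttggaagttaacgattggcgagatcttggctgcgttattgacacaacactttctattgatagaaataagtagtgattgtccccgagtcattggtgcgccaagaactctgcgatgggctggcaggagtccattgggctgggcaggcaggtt
The GC box was found 5 times in the Crabp1 promoter, 3 times in that of Cyp26b1, and 1 time each in those of Npy and Fezf1. The TATA box was found in that of Cyp26b1. Over the 7194 tested genes with a promoter in the table, 61.1% held GGGCGG and 6.81% held TATAAA. Among 194 enriched genes with a promoter the shares were 58.2% and 10.8%, and among 222 depleted genes 47.7% and 8.11%. TAATTA, the core recognised by many homeodomain proteins, was in 2.53% of tested, 2.06% of enriched and 4.95% of depleted promoters. AGGTCA, the letters that many nuclear receptors bind, was in 11.97%, 11.3% and 10.4%. Both were searched on both strands, TAATTA reads the same on each, and neither was in the 4 promoters printed. These shares describe letters in 300 bases and not bound sites. They rest on windows cut in the same way, and the offset of the other promoters is not given here.

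**Figure D2:**
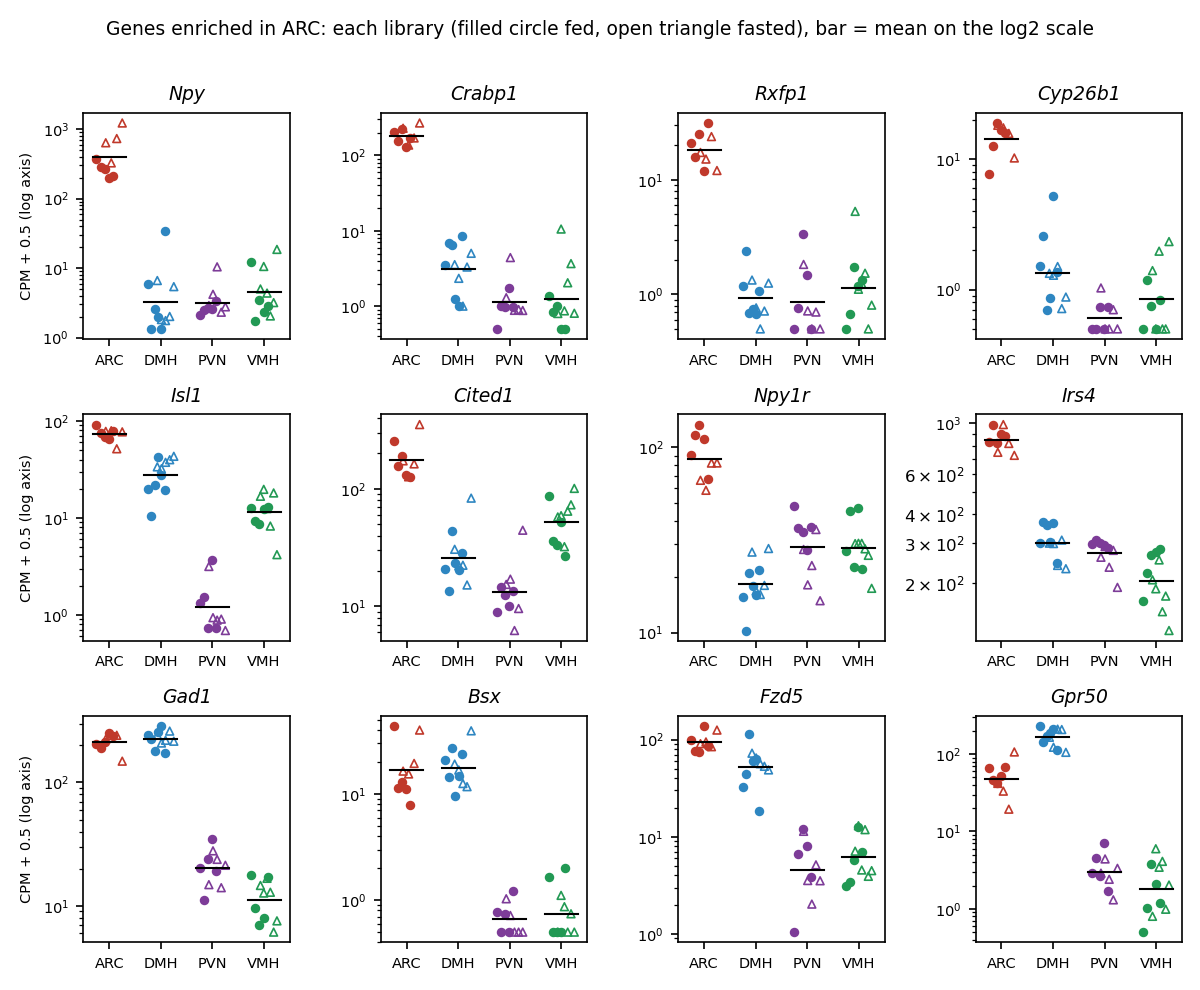
CPM + 0.5 of 12 genes enriched in ARC in each library on a log axis, by nucleus. Filled circles are fed and open triangles fasted mice, and the bar is the mean on the log2 scale. From Npy to Irs4 every ARC library lies above every other library, whereas Gad1, Bsx and Gpr50 reach the ARC level or more in DMH.

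Transcription factors of hypothalamic development were called in both directions. Of 57 tested, 11 were enriched (19.3%, against 2.59% of all genes), 16 were depleted (28.1%, against 3.24%) and 30 were not called. Isl1, a LIM homeodomain factor that acts in the development of ARC neurons, had 51.1 to 91.1 CPM in ARC (median 76.6) and 0.189 to 42.7 in the other libraries (3.33 ± 0.24, adjusted p = 4.84e-16, limma). No library overlapped, and the ARC mean of 73.2 CPM compared with means of 29.3 in DMH, 11.8 in VMH and 0.954 in PVN. Six3, a homeobox gene of the forebrain, had 32.9 to 109 CPM in ARC and was above each other nucleus (1.60 ± 0.18). Its ARC libraries overlapped with others, 6 of the 9 being above every other library. Sox3, an X-linked Sox factor of the hypothalamus and pituitary, was low but above each nucleus (1.91 ± 0.41, adjusted p = 3.16e-04). Outside this list, Prdm12, a zinc finger regulator, had 3.34 to 18.1 CPM in ARC against means of 0.584 to 0.722 CPM in the other nuclei (3.17 ± 0.36). Vgll3, a cofactor of TEAD factors that was also not on the list, had 18.9 to 36.1 CPM in ARC and at most 13.8 elsewhere (3.37 ± 0.33). Cited1, a transcriptional coactivator and likewise not listed, had 124 to 351 CPM in ARC and at most 100.1 elsewhere (2.81 ± 0.18, adjusted p = 1.58e-18). Tbx3os2, a non-coding transcript named for its place opposite Tbx3, an ARC transcription factor gene, was enriched at 3.33 ± 0.44, with 2.28 to 30.0 CPM in ARC.

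Further homeobox genes had ARC and DMH values well above those of PVN and VMH. Bsx, a homeobox factor of Npy neurons, had 7.31 to 43.0 CPM in ARC and a mean of 19.3, against 18.6 in DMH, 0.197 in PVN and 0.355 in VMH. Its difference was -0.03 against DMH (adjusted p = 0.974) and 4.67 and 4.55 against PVN and VMH. Gsx1 did the same at a lower level, with 0.60 against DMH (adjusted p = 0.381) and 3.56 and 3.27 against PVN and VMH. Dlx1 and Dlx5, factors of forebrain GABA neurons, were enriched over the mean of the others (1.85 ± 0.30 and 1.75 ± 0.31). Against DMH, Dlx1 was lower in ARC (-0.96, adjusted p = 0.0667), and Dlx5 did not pass (-0.75, adjusted p = 0.184). Hmx2, again a homeobox gene, was enriched over the mean (1.19 ± 0.28) and lower than in DMH (-1.28, adjusted p = 0.00413).

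Among depleted factors were the nuclear receptors Nr2f2 and Nr2f1 (COUP-TFII and COUP-TFI), which act in the patterning of the forebrain. Nr2f2 had 2.11 to 16.6 CPM in ARC with a median of 5.37, and 17.6 to 136 CPM in the other libraries (-3.05 ± 0.19, adjusted p = 1.16e-18, limma). Nr2f1 had 0.304 to 4.35 CPM in ARC with a median of 1.61, and 6.11 to 47.6 elsewhere (-2.74 ± 0.24, adjusted p = 2.53e-13). For both, the highest ARC library was below the lowest library of any other nucleus. Bcl11a, a zinc finger repressor, showed the same separation, with 7.17 to 26.2 CPM in ARC and 33.1 to 112 elsewhere (-1.93 ± 0.17). Nr2f1, Nr2f2 and Bcl11a share exon bases with antisense transcripts. The one opposite Nr2f1, A830082K12Rik, had a difference of -1.59, and that opposite Bcl11a, 4930538E20Rik, of -0.95. Of the 11 nuclear receptors tested, Nr2f1 and Nr2f2 were depleted (18.2%, against 3.24% of all genes), and the progesterone receptor gene Pgr alone was enriched (9.09%, against 2.59%), by 1.07 ± 0.19. It was above DMH and PVN by 1.37 and 1.40 and was not called against VMH (0.45, adjusted p = 0.145).

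Other depleted factors included genes of a neighbouring nucleus, Fezf1 and Pou3f2. Fezf1, a zinc finger factor that marks VMH, had a mean of 219 CPM there and a median of 0.608 CPM in ARC. It was lower in ARC than in DMH and PVN as well (-2.19 and -2.39). Pou3f2, a POU factor of PVN neuroendocrine cells, had a mean of 105 CPM in PVN, 1.52 to 7.79 CPM in ARC and differences of -4.70, -1.91 and -1.003 from PVN, DMH and VMH. Sox2, a factor of neural progenitors and glia, was depleted by 1.30 on the log2 scale, being lower than in DMH and VMH but not called against PVN (-0.52, adjusted p = 0.210).

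Receptors for peptides and hormones had more enriched members by number than any other list described here, and some shorter lists had higher shares. Of 40 tested, 13 were enriched (32.5%, against 2.59% of all genes), 3 were depleted (7.5%, against 3.24%) and 24 were not called. Rxfp1, counted among the 13, had been picked as a marker because it was high in these same libraries. The median of the 40 differences was 0.21, against 0.00 over all genes. Receptors of feeding signals stood among them. Ghsr, the ghrelin receptor, had 11.8 to 71.2 CPM in ARC with a median of 32.2, against 1.00 to 20.1 CPM elsewhere (2.43 ± 0.27, adjusted p = 4.67e-10, limma), and 8 of 9 ARC libraries were above every other library. Npy1r and Npy5r, receptors of neuropeptide Y, were enriched by 1.80 ± 0.16 and 2.29 ± 0.41. The 9 ARC libraries had 58.1 to 132 CPM of Npy1r, and no other library exceeded 47.8. Npy5r overlapped, with 5.78 to 31.3 CPM in ARC and at most 16.7 elsewhere. Both were above each of DMH, PVN and VMH. Prokr1, a prokineticin receptor that was not on the list, varied from 1.66 to 47.9 CPM in ARC (3.34 ± 0.39).

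Mc3r, the melanocortin 3 receptor, had 13.4 to 35.9 CPM in ARC and was above DMH (2.59) and PVN (3.96). Against VMH, where its mean was 20.1 CPM, it did not pass (0.44, adjusted p = 0.454). Lepr, the leptin receptor, had 14.2 to 91.5 CPM in ARC and was enriched by 1.48 ± 0.26 (adjusted p = 1.87e-05, limma). It was above DMH by 0.77 (adjusted p = 0.0982), VMH by 1.21 and PVN by 2.48. Its difference was 0.83 in fed and 2.26 in fasted mice (unadjusted p = 0.00621 and adjusted p = 0.836 for the change), and with fed libraries only it fell short of 1 (0.85, adjusted p = 0.0731). Ghr, the growth hormone receptor, had 106 to 249 CPM in ARC, a median of 143 and a difference of 1.22 ± 0.10 (adjusted p = 6.07e-14). Its nearest neighbour was PVN, with a mean of 106 CPM and a difference of 0.60 (adjusted p = 2.48e-04). Sstr1, a somatostatin receptor, was enriched by 1.17 ± 0.33 and did not pass against PVN (0.66, adjusted p = 0.344, limma). Of 13 tested genes of the growth hormone, somatostatin and insulin-like growth factor axis, 6 were enriched (46.2%, against 2.59% of all genes). In that list 1, Igf2, was depleted (7.69%, against 3.24%). Irs4, an adaptor of insulin and growth factor receptors, had 724 to 988 CPM in ARC with a median of 833, and 123 to 368 CPM elsewhere (1.72 ± 0.07, adjusted p = 3.44e-26). An antisense transcript opposite it, Gm15295, had a difference of 1.77. Nmur2, a neuromedin receptor, was enriched by 1.56 ± 0.28 and did not pass against DMH (0.50, adjusted p = 0.376).

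The depleted peptide receptors besides Rxfp3 were Cckbr and Hcrtr1, the receptors of cholecystokinin and orexin. Cckbr had 0 to 11.3 CPM in ARC and a mean of 33.5 CPM in VMH, and its differences from DMH and PVN did not pass (-0.35 and -0.63, adjusted p = 0.710 and 0.491). Hcrtr1 was at most 2.33 CPM in ARC. Of 24 receptors of monoamines and acetylcholine tested, 9 were depleted (37.5%, against 3.24% of all genes) and 1 was enriched (4.17%, against 2.59%), with a median difference of -0.61. The depleted ones included Adra2c and Adra1b, which respond to noradrenaline (-1.90 ± 0.34 and -1.39 ± 0.27), and Chrna7 and Chrna3, subunits of nicotinic receptors (-1.60 ± 0.37 and -1.38 ± 0.35). Chrna7 did not pass against DMH (-0.80, adjusted p = 0.250, limma). Htr2c, the serotonin 2C receptor, had a mean of 19.9 CPM in ARC and 72.2, 47.9 and 21.3 in DMH, PVN and VMH (-1.07 ± 0.14), and it fell short of -1 without the library labelled ARC-D-Fast-86 (-0.95). Cnr1, the cannabinoid receptor of presynaptic terminals, had 26.3 to 66.0 CPM in ARC and 40.4 to 337 elsewhere, and was below each nucleus (-1.79 ± 0.11, adjusted p = 2.66e-18, limma).

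The enriched monoamine receptor was Drd2, the dopamine D2 receptor (1.62 ± 0.30), with 10.6 to 22.9 CPM in ARC. It did not pass against DMH (0.50, adjusted p = 0.415, limma), where it had 3.33 to 25.2 CPM. Of 4 tested genes of monoamine and acetylcholine handling, Th and Gch1 were enriched over the mean of the others (50%, against 2.59% of all genes). Neither of them was above each other nucleus, and the other 2 were not called. Th, tyrosine hydroxylase, had 28.4 to 80.2 CPM in ARC, and its difference from the mean of the others was 1.69 ± 0.27. Its ARC mean was 49.6 CPM, and the means of DMH, PVN and VMH were 56.8, 42.8 and 1.76. It passed against VMH (4.98) and did not pass against DMH and PVN (-0.14 and 0.23, adjusted p = 0.841 and 0.751). Gch1, which makes the cofactor of tyrosine hydroxylase, was enriched by 1.41 ± 0.37 and did not pass against DMH (0.67, adjusted p = 0.362). Its difference was 0.0076 within batch 1, which held 2 ARC libraries, and 1.23 and 2.36 within the others, and its call was lost with fasted libraries only (adjusted p = 0.268, limma).

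Gad1, which makes GABA, had 148 to 253 CPM in ARC with a median of 224, and DMH had 173 to 286 CPM, PVN 10.7 to 34.6 and VMH 5.61 to 17.2. ARC and DMH overlapped (-0.10, adjusted p = 0.768), and each ARC library was above each PVN and VMH library (3.40 and 4.25, adjusted p = 7.43e-22 and 8.12e-27, limma). Slc32a1, which loads GABA into vesicles, repeated this with 84.9 to 122 CPM in ARC, -0.34 against DMH (adjusted p = 0.418) and 2.78 and 4.38 against PVN and VMH. Gad1 and Slc32a1 were the enriched genes among 5 GABA neuron genes tested (40%, against 2.59% of all genes). The other 3 were not called. Of the 5, 2 had a negative difference, and 1 was below each other nucleus, as were 3.27% of all genes tested. Slc17a6, the vesicular glutamate transporter of hypothalamic neurons, had 59.9 to 187 CPM in ARC and means of 188, 358 and 581 CPM in DMH, PVN and VMH. ARC was below each of them (-0.74, -1.65 and -2.39), and 5 of its 9 libraries were below every other library. Slc10a4, a vesicular protein of monoamine and cholinergic neurons, was enriched by 2.35 ± 0.34, at 2.13 to 14.4 CPM.

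Of 17 genes of neuropeptides and secreted synaptic proteins tested, 2 were enriched (11.8%, against 2.59% of all genes) and 9 were depleted (52.9%, against 3.24%). Npy, among the 2 enriched, was a marker picked with earlier results of these data known. Pnoc, which encodes nociceptin, was the other enriched gene, with 9.59 to 38.9 CPM in ARC (2.03 ± 0.34, adjusted p = 7.54e-06, limma), and it was above DMH by 1.10 (adjusted p = 0.0621). Several depleted peptide genes were high in a single neighbour. Pmch, melanin-concentrating hormone of the lateral hypothalamus, had 0.228 to 2.01 CPM in ARC, a mean of 277 CPM in DMH and 28.3 in VMH, and did not pass against PVN (-0.15, adjusted p = 0.850). Parpbp, whose 435 shared exon bases lie opposite Pmch, had the same pattern (-7.10 against DMH), and reads of the pair could not be separated because the use of strand is not stated. Npvf and Hcrt, which encode RFamide-related peptides and orexin, had mean values of 95.2 and 112 CPM in DMH and medians of 0.304 and 0.402 CPM in ARC. Avp, Crh and Ucn3, which encode vasopressin, corticotropin-releasing hormone and urocortin 3, had mean values of 800, 36.8 and 23.2 CPM in PVN and medians of 2.22, 0 and 0 CPM in ARC. For Avp the ARC values were above those of DMH and VMH (0.87 and 0.77, adjusted p = 0.0626 and 0.0777). For Hcrt the ARC difference was 0.22 in batch 1, which held 2 ARC libraries, and negative in the other batches.

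Further secreted factors were lower in ARC than in every neighbour. Cbln1, a synaptic organiser, had 7.30 to 51.2 CPM in ARC and 36.6 to 462 elsewhere (-2.55 ± 0.17, adjusted p = 1.19e-17, limma). Bdnf, a neurotrophin that restrains feeding in VMH, had 0 to 12.5 CPM in ARC with a median of 1.97, and means of 10.5, 24.7 and 33.3 in DMH, PVN and VMH (-2.88 ± 0.35). Bdnf shares 896 exon bases with an antisense transcript that was not tested. Tac1, the precursor of substance P, was depleted by 1.23 on the log2 scale. Fam19a2, a secreted neuronal protein, had 0.794 to 10.3 CPM in ARC and 3.56 to 36.5 elsewhere (-2.46 ± 0.27).

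**Figure D3:**
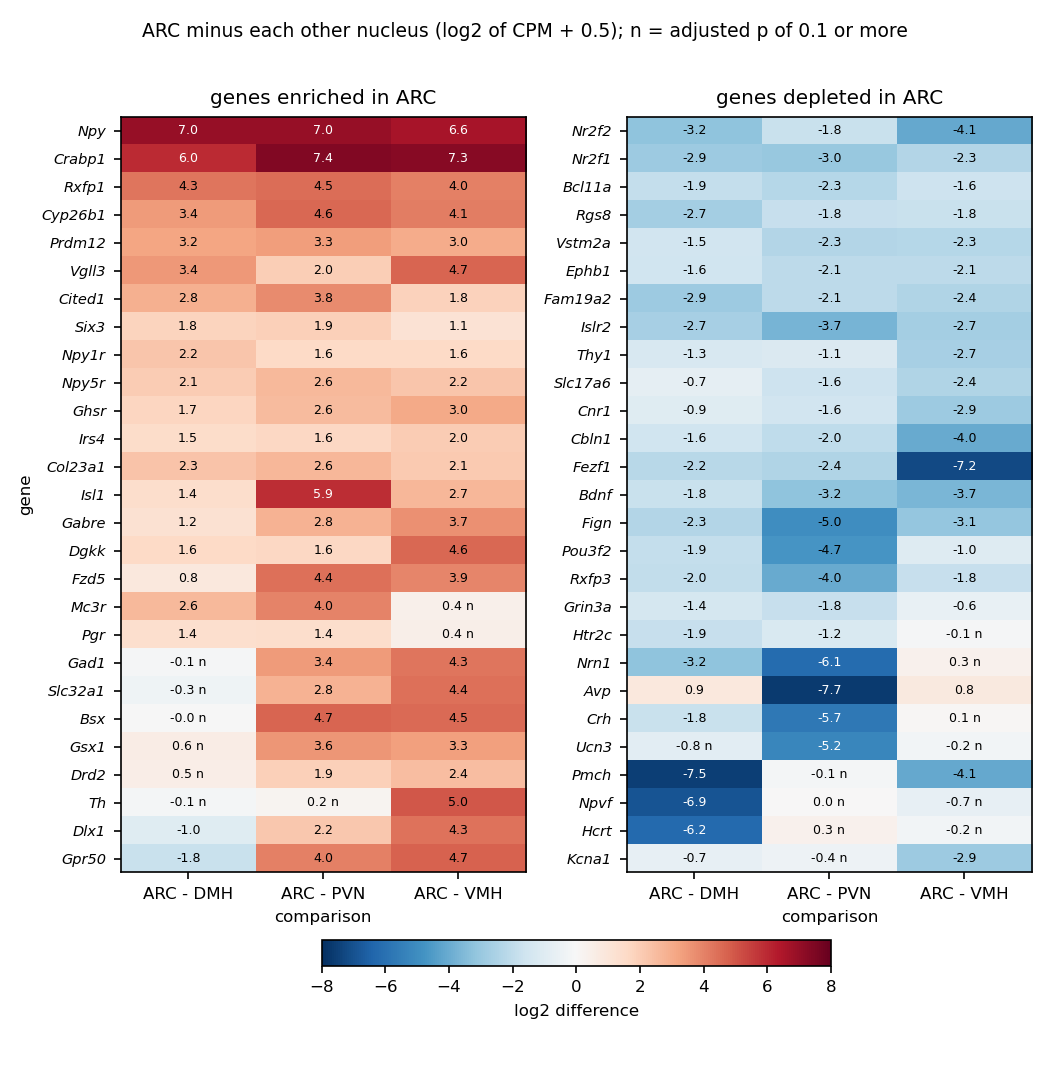
Log2 difference between ARC and each other nucleus for 27 enriched genes (left) and 27 depleted genes (right). The number in each cell is the difference and n marks an adjusted p of 0.1 or more. Npy and Crabp1 are red against all nuclei, Gad1 and Bsx are near white against DMH only, Npvf and Hcrt are blue mainly against DMH, and Pmch is blue against DMH and VMH.

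How the neighbours shared in the calls can be counted. Of the 261 enriched genes, 175 were also above DMH with adjusted p under 0.1, as were 7.9% of all genes tested. Above PVN were 189 (7.88% of all genes) and above VMH 221 (14.9%). Enriched genes that passed against PVN and VMH but not against DMH numbered 51. Those that passed against DMH and VMH but not PVN numbered 47, and those that passed against DMH and PVN but not VMH 18. For these counts and the next, the share over all genes was not counted. In 16 of the 261, the DMH mean was above the ARC mean. One was Gpr50, an orphan receptor related to melatonin receptors and carried by tanycytes, with 18.9 to 106 CPM in ARC and a mean of 169 CPM in DMH. It was above PVN and VMH (4.002 and 4.72) and below DMH (-1.79, adjusted p = 8.08e-05, limma). Of the 326 depleted genes, 234 were below DMH (10.4% of all genes tested), 221 below PVN (8.87%) and 244 below VMH (15.5%). Of the 326, 287 had their lowest mean of the 4 nuclei in ARC. The call itself favours that, and the share over all genes was not counted. With the 32 other libraries pooled as 1 group, whose spread then holds the differences between nuclei, Th, Dlx1, Dlx5, Hmx2, Gpr50, Npvf, Avp, Hcrt, Cckbr and Opalin lost their calls and kept their directions. With a pseudocount of 2, so did Rxfp2, Ttr, Crym, Sstr1, Hmx2, Kcnk13, Hcrtr1, Chrna3, Opalin, Plvap and Slco1c1.

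Among signalling genes, Dgkk, a diacylglycerol kinase, had 576 to 924 CPM in ARC with a median of 817, and 18.3 to 388 CPM elsewhere (2.60 ± 0.11, adjusted p = 3.44e-26, limma). Asb4, a subunit of a ubiquitin ligase expressed in ARC neurons, had 166 to 467 CPM in ARC and at most 220 elsewhere (2.79 ± 0.18), and 8 of 9 ARC libraries were above every other library. Gabre, the epsilon subunit of GABA-A receptors, had 243 to 468 CPM in ARC (2.56 ± 0.16, adjusted p = 1.32e-18). Of the 10 members of its family that were tested, it alone was enriched (10%, against 2.59% of all genes). Fzd5, a Wnt receptor, had 74.6 to 137 CPM in ARC and a difference of 3.06 ± 0.24. Of 12 Wnt ligands, receptors and inhibitors tested, Fzd5 alone was enriched (8.33%). It was above DMH by 0.83 (adjusted p = 0.0434) and above PVN and VMH by 4.42 and 3.93. On the depleted side, Rgs8, which ends signals of G protein-coupled receptors, had 12.2 to 33.37 CPM in ARC and 33.44 to 166 elsewhere, with no overlap by a narrow margin (-2.10 ± 0.14, adjusted p = 3.92e-18). Fign, a microtubule-severing protein, had 0 to 11.1 CPM in ARC and a mean of 102 in PVN (-3.46 ± 0.27).

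Of 60 potassium channel genes tested, 3 were enriched (5%, against 2.59% of all genes) and 6 depleted (10%, against 3.24%). Kcna5 was enriched by 1.25 ± 0.20, Kcnh8 by 1.82 ± 0.36 and Kcnk13 by 1.44 ± 0.35. Kcna5 did not pass against PVN (0.43, adjusted p = 0.282, limma). Kcnh1 was depleted (-1.72 ± 0.20), with 152 CPM on average in PVN, and Kcna1 was lower (-1.34 ± 0.20), with 130 CPM in VMH. Kcna1 did not pass against PVN (-0.42, adjusted p = 0.293, limma). Of 18 sodium and calcium channel subunits tested, Scn9a and Scn7a were enriched and Cacna2d1 and Cacng3 depleted (11.1% each way). Scn9a, a voltage-gated sodium channel, had 251 to 371 CPM in ARC and was above each nucleus (1.21 ± 0.09, adjusted p = 3.71e-16, limma), least against PVN (0.32, adjusted p = 0.0333). Cacna2d1, an auxiliary calcium channel subunit, did not pass against DMH (-0.04, adjusted p = 0.810) and was lower than PVN and VMH (-1.08 and -2.21). Of 12 tested genes of the glutamate receptor family, the antisense transcript Grin1os included, 2 were depleted (16.7%, against 3.24% of all genes). Of these 12, 0 were enriched and 10 were not called. Those depleted were Grm4 and Grin3a (-1.73 ± 0.27 and -1.27 ± 0.10), both below each other nucleus.

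Of 9 ephrins and Eph receptors tested, cell surface proteins of axon guidance, 3 were depleted (33.3%) and 1 was enriched (11.1%). Ephb1, an Eph receptor that guides axons, had 6.44 to 21.2 CPM in ARC and 22.7 to 95.6 elsewhere, with no overlap (-1.94 ± 0.17, adjusted p = 3.97e-13, limma). Epha10 was lower by 2.41 on the log2 scale. Efna5, an ephrin ligand, had 32.1 to 100.7 CPM in ARC and was above each nucleus (1.45 ± 0.19). Of 15 contactins, contactin-associated proteins and teneurins tested, 4 were depleted, Cntn4 among them (-1.57 ± 0.14), and 1 was enriched (26.7% and 6.67%). Among 33 protocadherins tested, 1 was called in each direction (3.03%), near the shares of all genes (2.59% and 3.24%). The enriched one was Pcdh20 (1.79 ± 0.21, with 38.6 to 121 CPM in ARC). Islr2 and Nrn1, proteins of neurite growth, had ARC medians of 0.537 and 0.508 CPM and differences of -3.04 ± 0.34 and -3.01 ± 0.31. Islr2 was below each nucleus, whereas Nrn1 did not pass against VMH (0.32, adjusted p = 0.585) and had a mean of 102 CPM in PVN. Islr2 shares 181 exon bases with Islr, which had a difference of 1.30.

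Thy1, a surface glycoprotein of projection neurons, had 93.3 to 152 CPM in ARC and 182 to 1137 elsewhere, with no overlap (-1.71 ± 0.07, adjusted p = 3.44e-26, limma). Vstm2a and Pcp4l1, an immunoglobulin-domain protein and a relative of a calmodulin-binding peptide, were also separated in every library (-2.06 ± 0.09 and -1.87 ± 0.15). The highest ARC library was also below every other library for Elmod1 and Sparcl1, with smaller differences (-0.74 and -0.56). Nr2f2, Nr2f1, Bcl11a, Rgs8 and Ephb1 were also among the 11.

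**Figure D4:**
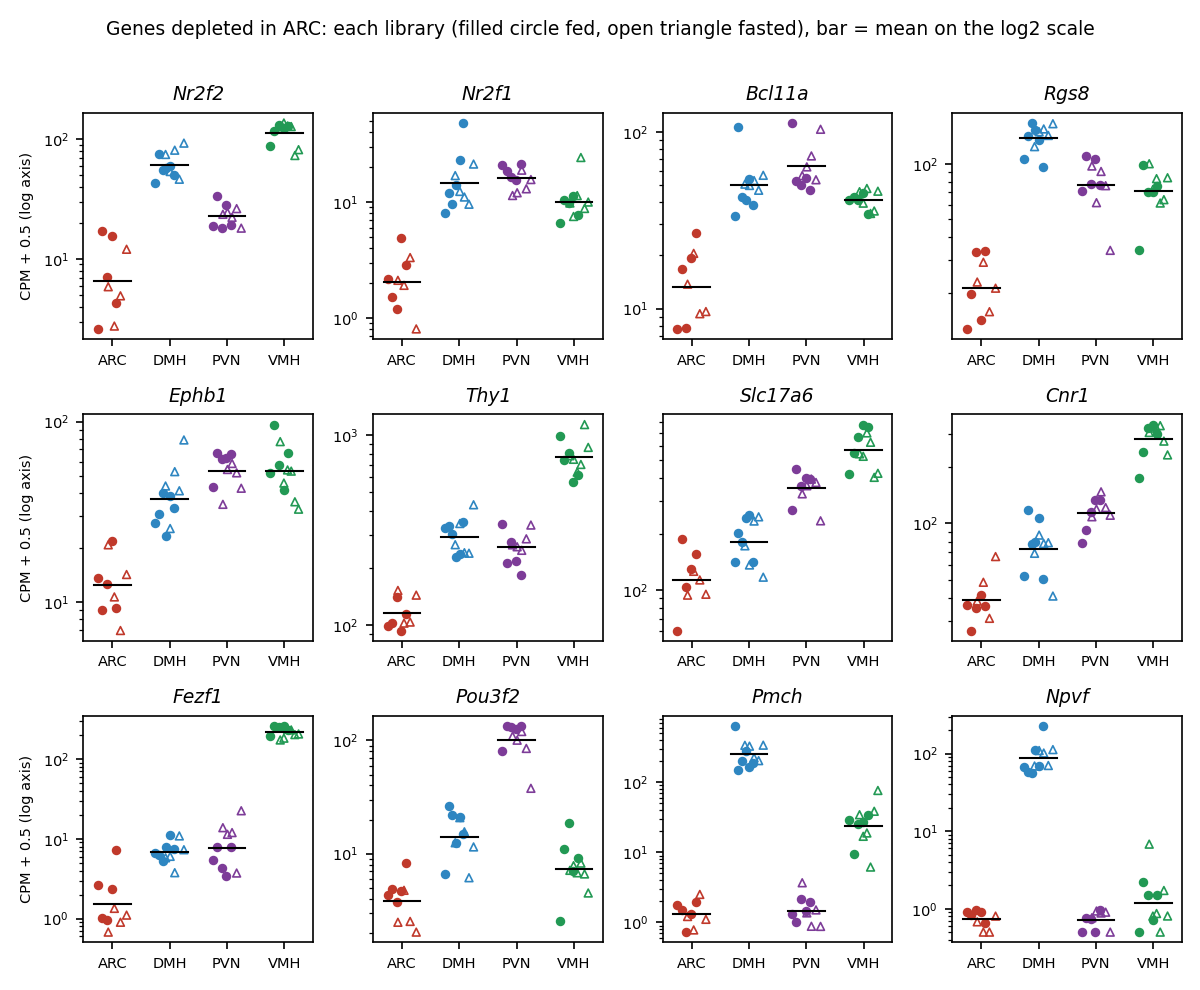
CPM + 0.5 of 12 genes depleted in ARC in each library on a log axis, by nucleus. Filled circles are fed and open triangles fasted mice, and the bar is the mean on the log2 scale. From Nr2f2 to Thy1 every ARC library lies below every other library, and the PVN and ARC libraries of Pmch and Npvf overlap.

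Markers of other cell types moved with these groups, and their part in the results above was not tested. Of 12 measured tanycyte and ependymal genes, 6 were enriched (Fndc3c1, Col23a1, Gpr50, Mia, Scn7a and Crym; 50%, against 2.59% of all genes) and 0 were depleted. Their CPM summed to 338 to 741 in ARC, and the sums of DMH, PVN and VMH were 411 to 824, 306 to 417 and 228 to 346, and ARC overlapped with each of them. The median sum was 456 in ARC, and the medians of the other nuclei were 488, 346 and 267. Fndc3c1 varied from 0.402 to 35.9 CPM in ARC (median 15.2) and was at most 5.11 CPM elsewhere (3.76 ± 0.40, adjusted p = 9.57e-11, limma). Col23a1, a membrane collagen, had 20.6 to 63.9 CPM in ARC and was above each other nucleus (2.35 ± 0.29). Scn7a, a sodium-sensing channel of glia near the ventricle, had 40.3 to 137 CPM (1.62 ± 0.23). Mia did not pass against DMH (1.14, adjusted p = 0.105, limma), and Crym did not pass against VMH (0.06, adjusted p = 0.953, limma). Lum, a matrix proteoglycan listed with fibroblasts, was enriched at 0 to 17.6 CPM (2.23 ± 0.39), and Col4a3, a basement membrane collagen, at 2.74 to 22.2 CPM (2.32 ± 0.46). Igf2, a growth factor of meninges and vessels, was depleted (-1.34 ± 0.33), and its highest value in any library was 330 CPM, outside ARC. Its adjusted p stayed under 0.1 but its difference fell short of -1 without the library labelled ARC-D-Fed-111 (-0.96). Against VMH, Igf2 did not pass (-0.65, adjusted p = 0.239, limma).

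All 12 measured astrocyte genes had a negative difference, with a median of -0.46, and 1 was called (8.33% depleted, against 3.24% of all genes). That gene was Agt, the precursor of angiotensin (-1.27 ± 0.12, 20.7 to 61.1 CPM in ARC and 49.2 to 229 elsewhere). The summed astrocyte CPM was 650 to 744 in ARC and 806 to 1173 in the other nuclei, without overlap. Of 16 oligodendrocyte genes tested, 14 were negative and 4 depleted (25%), Mobp, Mag, Myrf and Opalin, and the median was -0.75. Mag did not pass against PVN (-0.59, adjusted p = 0.271, limma). Mobp, a myelin protein, had 30.8 to 147 CPM in ARC and a mean of 240 CPM in VMH (-1.39 ± 0.16). The call of Opalin, the weakest of the 4 (-1.11 ± 0.43, adjusted p = 0.0692), was lost when any of 4 libraries was left out (ARC-D-Fast-86, ARC-D-Fast-311, ARC-D-Fed-125 and ARC-D-Fed-313), with adjusted p up to 0.201. The summed oligodendrocyte CPM was 370 to 972 in ARC, and it was 1392 to 2099 in VMH, 602 to 1896 in DMH and 477 to 817 in PVN. All 15 endothelial and pericyte genes tested were negative (median -0.83) and 2 were depleted (13.3%). These were Slco1a4, a transporter of the blood-brain barrier (-1.32 ± 0.20), and Plvap (-1.16 ± 0.36), a protein of fenestrated capillaries. Plvap fell short of -1 without ARC-D-Fast-305 (-0.996) or ARC-D-Fed-111 (-0.988). The summed CPM of the 15 was 90.3 to 199 in ARC, and it was 345 to 542 in PVN, 163 to 369 in DMH and 175 to 256 in VMH. Of 14 microglial genes tested, 0 were called and 11 were positive. Over all genes tested the median difference was 0.00.

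**Figure D5:**
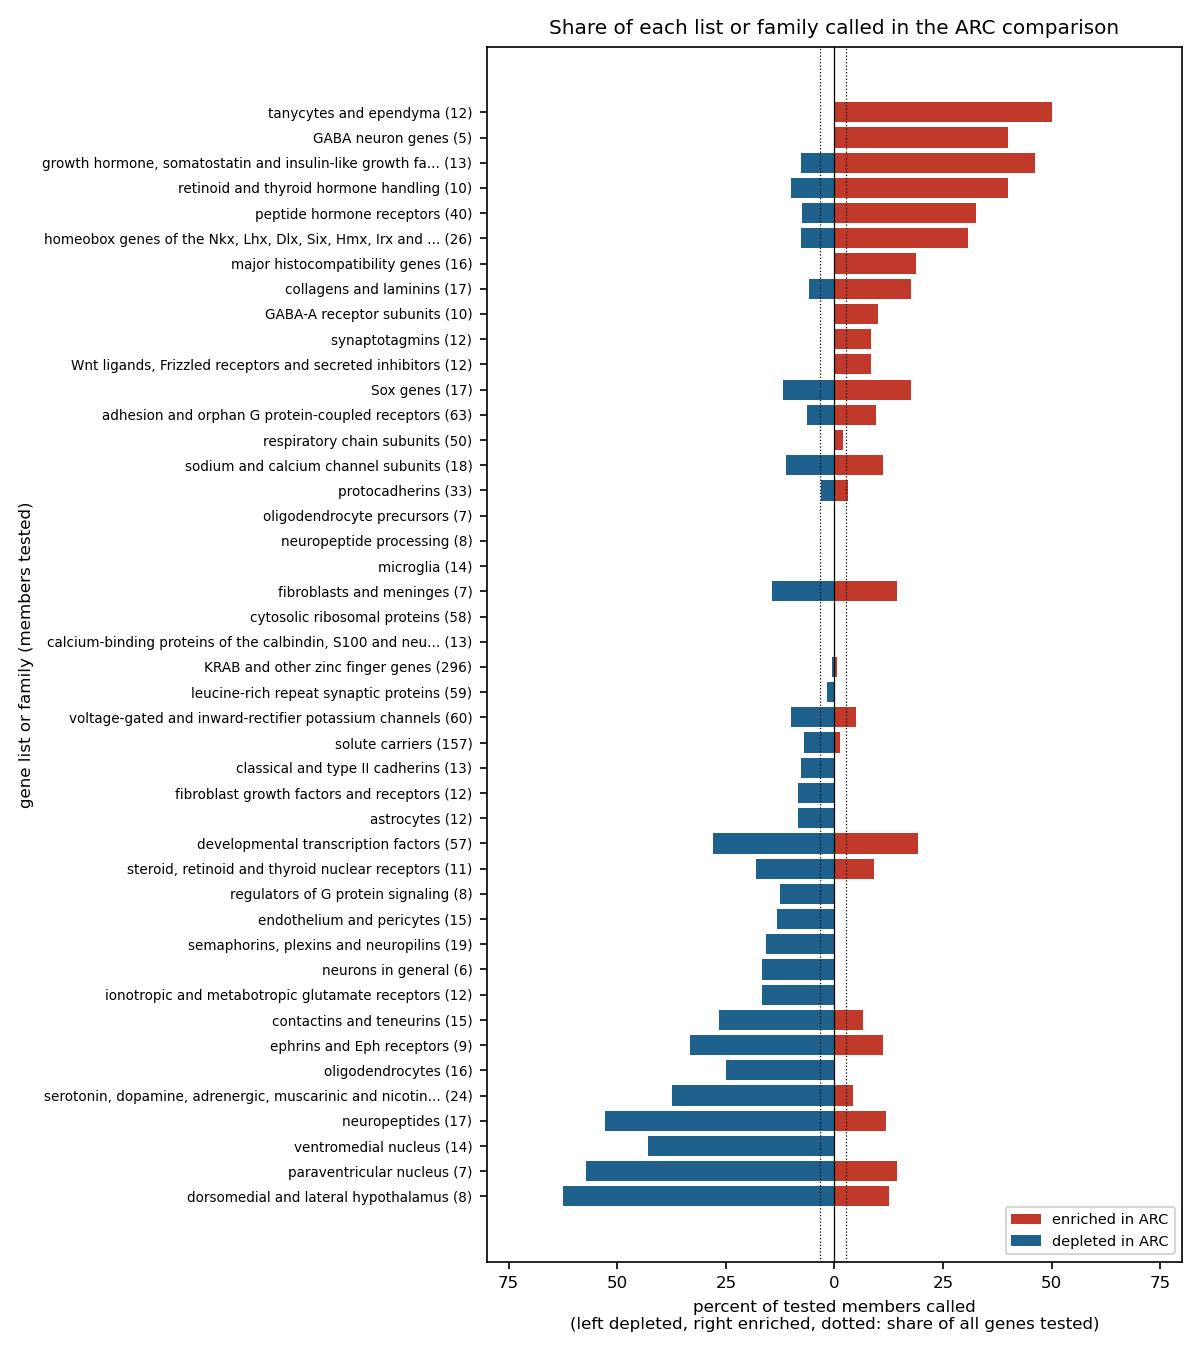
Percent of the tested members of each gene list or family that was depleted in ARC (blue, left) or enriched (red, right), with the number tested in brackets and dotted lines at the 2.59% and 3.24% of all genes. Tanycyte genes (6 of 12) and peptide receptors (13 of 40) lie on the enriched side, and the lists of the other nuclei and monoamine receptors on the depleted side.

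Cytosolic ribosomal protein genes had small positive differences. All 58 tested had a positive difference from the mean of the others, between 0.14 and 0.77 with a median of 0.45. None reached the call at a log2 difference of 1. With adjusted p under 0.1 and no minimum size, 52 of 58 were higher (89.7%, against 9.79% of all genes tested), and 23 were above each other nucleus (39.7%, against 2.06%). The median was 0.47 against DMH, 0.27 against PVN and 0.59 against VMH. Rpl4, a protein of the large subunit, had 658 to 867 CPM in ARC (0.40 ± 0.05), and Rps3, of the small subunit, 313.4 to 618.2 (0.44 ± 0.08). The summed CPM was 7133 to 9670 in ARC and overlapped with PVN (6208 to 8188) and VMH (4475 to 8632), but not with DMH (4892 to 7023). All 58 stayed positive under each of 56 other settings and left-out libraries, with medians of 0.43 to 0.49, while the median over all genes moved between -0.01 and 0.03. These genes have many near-identical pseudogenes, to which the counting could have assigned some reads.

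The enriched genes were also counted by chromosome. The X chromosome held 35 of the 261 enriched genes (13.4%), 12 of the 326 depleted genes (3.68%) and 477 of the genes tested (4.73%). Enriched were 7.34% of the X-linked genes and 2.35% of the others. The X-linked genes as a whole had a median difference of 0.05. Named above among them are Irs4, Dgkk, Gabre, Cited1, Gpr50, Fndc3c1 and Sox3. Gpc4, a heparan sulfate proteoglycan, had at least 51.2 CPM in ARC and at most 42.9 elsewhere, and it was above each nucleus (2.38 ± 0.18, adjusted p = 1.27e-15, limma). Lhfpl1 and Nxf3 were enriched by 3.05 ± 0.33 and 2.99 ± 0.42 at lower values. Gpr101, an orphan receptor, had 315 to 431 CPM in ARC and differences of 0.76, 0.29 and 2.26 from DMH, PVN and VMH. Of the 35, 24 were above each other nucleus, as were 105 of all 261 enriched genes (40.2%) and 2.06% of all genes tested. No test of this share was made.

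The last comparison asked whether the ARC difference depended on nutritional state. With limma, 0 genes passed an adjusted p of 0.1 (0.0% of 10077), 495 genes had an unadjusted p under 0.05, and the smallest adjusted p was 0.623. The ARC differences in fed and in fasted mice had the same sign for 260 of the 261 enriched and 325 of the 326 depleted genes. These genes had been called on both states together, which favours the same sign. Fezf1 differed by -3.30 in fed and -4.67 in fasted mice, and Crabp1 by 6.98 and 6.80. With 4 fasted and 5 fed ARC libraries, differences of this size between the states did not pass the test. With fed libraries only, and fewer samples, Lepr, Ghr, Htr2c, Mag, Igf2, Sstr1, Crym, Hcrtr1, Kcnk13, Opalin, Plvap and Cacng3 lost their calls. With fasted libraries only, Gch1, Pgr, Rxfp2, Ttr, Crym, Hcrtr1, Chrna3, Myrf, Opalin and Slco1c1 did.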

How the data were processed

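The authors cut nuclei from cresyl violet-stained sections by laser capture, amplified the RNA (Ovation V2), sequenced single ends, aligned reads with TopHat2 2.0.11 to GRCm38 and deposited 1 table of CPM values for 10127 genes. The deposited CPM are scaled to the library's reads and sum to 554896 to 689010 over the table. The submitters' processing notes also name Cufflinks 2.2.1 and CASAVA 1.7 without saying for which step. Which program counted the reads, and with what use of strand, is not given in the sources used here, so overlapping genes may share reads. The table holds no gene whose identifier falls in a range with 6725 annotated genes, and these were not analysed here. Columns matching no sample label (2) were not used. Both are named as ARC, with the state and mouse number of the 2 PVN samples that have no column of their own. Whether they hold those samples was not settled.

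Values were log2(CPM + 0.5). Genes with at least 1 CPM in at least 9 libraries were kept (10077). limma 3.58.1 in R 4.3.3 fitted nucleus, state and batch, with the mouse as a random block (statmod 1.5.0) because nuclei came from the same animals. The consensus correlation within a mouse was -0.0037, and the residuals of 27 pairs of an ARC library with another library of its mouse correlated by a median of -0.065. The tests were 2-sided contrasts of ARC with the mean of the other nuclei at equal weight, with each nucleus, and of fasted with fed mice, at an adjusted p of 0.1 (Benjamini-Hochberg). Replicates were separate mice. On simulated data of 10100 genes, 100% of genes raised or lowered 4-fold and 8-fold in ARC (100 of each) were recovered. There were 1 and 2 false calls in the raised and lowered direction. Smaller folds were not simulated. The changed genes had means above 2 CPM, all genes were given the same spread, and the other nuclei did not differ from each other. Recovery at lower values, or where the other nuclei differ, was not simulated. Depth was estimated from the steps between low CPM values, and precision from counting was not modelled.

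Genes named were the markers Npy, Crabp1 and Rxfp1, the 15 most enriched and 15 most depleted at a mean of at least 5 CPM, up to 4 called members per list and direction, and the 3 with the largest difference from each nucleus. A further 18 were chosen after their values were seen: Cited1, Npy1r, Dgkk, Tac1, Htr2c, Vstm2a, Pcp4l1, Elmod1, Sparcl1, Gpr101, Nmur2, Rxfp2, Ttr, Crym, Hcrtr1, Hmx2, Plvap and Gpc4. The members and gene lists were chosen with earlier results of these data known. Other pseudocounts, filters, scalings, blocks, subsets and left-out libraries were tried.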

Additional observations from a re-analysis of the deposited data

Results flagged for a closer look

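For 17 of the 114 genes named, 1 of the 9 ARC libraries stood far from the rest by Dixon's criterion on the CPM scale. Chance gives about 1 in 20, or 5.7, for normally distributed values, which CPM need not be, and 16 of the 17 were high values. On the log2 scale used for the tests the criterion was met by 5 genes, Pnoc, Kcnh1, Asb4, Pcp4l1 and Hmx2, of which 2 were among the 17. In ARC-D-Fast-86 the highest values were those of Pnoc (38.9 CPM, next library 18.6), Six3 (109 CPM, next 67.1), Sox3 (17.3 CPM, next 6.21), Fam19a2 (10.3 CPM, next 5.25), Parpbp (16.1 CPM, next 4.83) and Hcrt (10.9 CPM, next 3.80). In ARC-D-Fed-111 they were Gsx1 (23.6 CPM, next 11.8), Tbx3os2 (30.0 CPM, next 12.8), Mia (15.2 CPM, next 7.47) and Myrf (24.1 CPM, next 8.82).

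In ARC-D-Fed-313, Pou3f2 (7.79 CPM, next 4.40), Fezf1 (6.83 CPM, next 2.11) and Rxfp2 (13.8 CPM, next 5.63) were highest. In ARC-D-Fed-125, Islr2 (6.95 CPM, next 2.01) and Grm4 (11.01 CPM, next 5.63) were highest and Kcnh1 was lowest (2.88 CPM, next 19.2). Ttr was highest in ARC-D-Fast-311 (10.1 CPM, next 5.19). The enrichment or depletion of these 17 genes was called without each of these libraries in turn. The cause of the high and low values was not tested. The other nuclei were not examined in this way.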

How the results depend on the processing

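The 114 genes named kept their direction in every alternative and left-out library in which they were tested, and 86 kept their call or its absence there. Of them 98 were tested in all 56 fits, and the filter on low values took 16 out of 1 or more, Fndc3c1 being tested in 44. With a pseudocount of 2 in place of 0.5, which shrinks differences at low values, enriched genes numbered 145 and depleted genes 174, and 11 named genes lost their call, namely Rxfp2 (0.98), Sstr1 (0.88), Hmx2 (0.48), Kcnk13 (0.90), Ttr (0.74), Crym (0.73), Hcrtr1 (-0.85), Chrna3 (-0.90), Opalin (-0.78), Plvap (-0.70) and Slco1c1 (-0.98). With fed libraries only, 71 genes were above and 144 below each other nucleus, and with fasted libraries only 83 and 148, fewer samples being tested; 12 and 10 named genes lost their call. Leaving out 1 library at a time gave 253 to 272 enriched, 297 to 340 depleted, 186 to 216 above each and 295 to 336 below each. The change with state, refitted without each of the 9 ARC libraries only, gave 0 to 1 genes, the 1 being Tubb3 without ARC-D-Fed-308. Without the mouse block, enriched and depleted genes numbered 261 and 327, and genes above and below each nucleus 209 and 331. The block as a fixed term gave 276 enriched genes, 212 above and 323 below each nucleus, and of the genes named it ended the call of Opalin alone. With 8 group means or pooled other libraries, the contrasts with single nuclei were not run. At a median ARC depth of 4.38e+06 reads, genes near 1 CPM rest on a few reads, and the absence of a call there does not show equal expression.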
